A study of Mus musculus with 6 samples.

Results

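The matrix metalloproteinases (Mmp), the Adamts proteases and the tissue inhibitors of metalloproteinases (Timp) were read in RNAseq data of sorted neural crest cells (NCCs) of the mouse embryo. Members were the protein-coding genes of GENCODE M21 whose symbol is Mmp, Adamts or Timp followed by a number, with the Adamts-like genes left out. This gave 45 genes of the 46983 rows of the count table, of which 22 were Mmp genes, 19 Adamts genes and 4 Timp genes. Of these, 33 had enough reads to be tested (16 Mmp, 14 Adamts and 3 Timp genes), among 13961 tested genes in all, and the other 12 are given by their counts.

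The study deleted BAF155 and BAF170, core subunits of the BAF chromatin remodeling complex that are encoded by Smarcc1 and Smarcc2, in the neural crest lineage. GFP+ cells were sorted from 6 embryos at E11.25, all of which carried the alleles Wnt1 Cre/+ and Rosa26 mTmG/+, a reporter that switches from tdTomato to GFP where Cre has acted. The 3 control embryos were flox/+ at both BAF155 and BAF170, so that Cre removed a copy of each gene there too, and the 3 deficient embryos, which lacked both proteins in this lineage by design, were flox/flox at both. Wnt1 Cre also marks dorsal cells of the neural tube, and is therefore not restricted to NCCs.

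Mmps are secreted or membrane-bound zinc proteases that cut collagens, laminins, elastin and growth factor carriers. Adamts proteases are secreted enzymes with thrombospondin repeats that process procollagen, trim proteoglycans such as versican and act on fibrillin microfibrils. Timps bind the active site of these enzymes and block it. Migrating crest cells use such proteases to leave the neural tube and to remodel the matrix through which they move, and macrophages secrete several Mmps when they invade and clear tissue.

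The libraries held between 8191219 and 19808620 counts, every deficient library being deeper than every control library. Levels are given as CPM, counts scaled to TMM-normalized library sizes, and levels of different genes are set against each other per kb of exon, except that the split at 10 CPM and the shares of a family use CPM. Fold changes are log2 values of deficient over control. In the order control replicates 1, 2 and 3 and deficient replicates 1, 2 and 3, Smarcc1 stood at 42.1, 55.0, 35.1, 29.4, 26.4 and 24.5 CPM. It was lower in every deficient library (log2 fold change −0.71, SE 0.16, adjusted p = 0.0676, edgeR with Benjamini-Hochberg adjustment). Smarcc2 read 91.8, 89.9, 92.9, 85.9, 82.3 and 86.8 CPM in the same order (log2 fold change −0.11, adjusted p = 0.251 by edgeR). Counts per gene do not separate the deleted exons from the remaining ones, so these values check the labels only in part.

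The cell type labelled for all 6 samples is neural crest, yet the most abundant members lay among transcripts of macrophages. Ctss, Lyz2 and C1qb, which code for a lysosomal protease, lysozyme and a complement chain of macrophages, had mean levels of 2823, 2640 and 1607 CPM per kb of exon over the 6 libraries. The crest markers Pdgfra, Prrx1 and Twist1 had 1.77, 1.60 and 4.22 CPM per kb. The 14 macrophage markers summed to between 12410 and 14360 CPM in controls and between 14453 and 15818 CPM in deficient libraries. The 18 mesenchymal crest markers summed to between 79.1 and 138 CPM in controls and between 40.7 and 66.9 CPM in deficient libraries. No marker of either list was at 0 in all libraries. In such bulk samples, fewer cells of a type and less RNA per cell cannot be told apart.

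The proteases fell into an abundant set with small positive fold changes and a scarce set with mostly negative ones. Of 9 members with a mean of at least 10 CPM, 8 had a positive log2 fold change, with a median of 0.19. Of 24 tested members below that level, 21 had a negative log2 fold change, with a median of −0.69. The same medians over all tested genes were 0.07 for the 7361 genes at or above 10 CPM and −0.24 for the 6600 genes below it, so the opposite signs by level were also present outside the family. The plot of levels by library shows both sets.

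**Figure D1:**
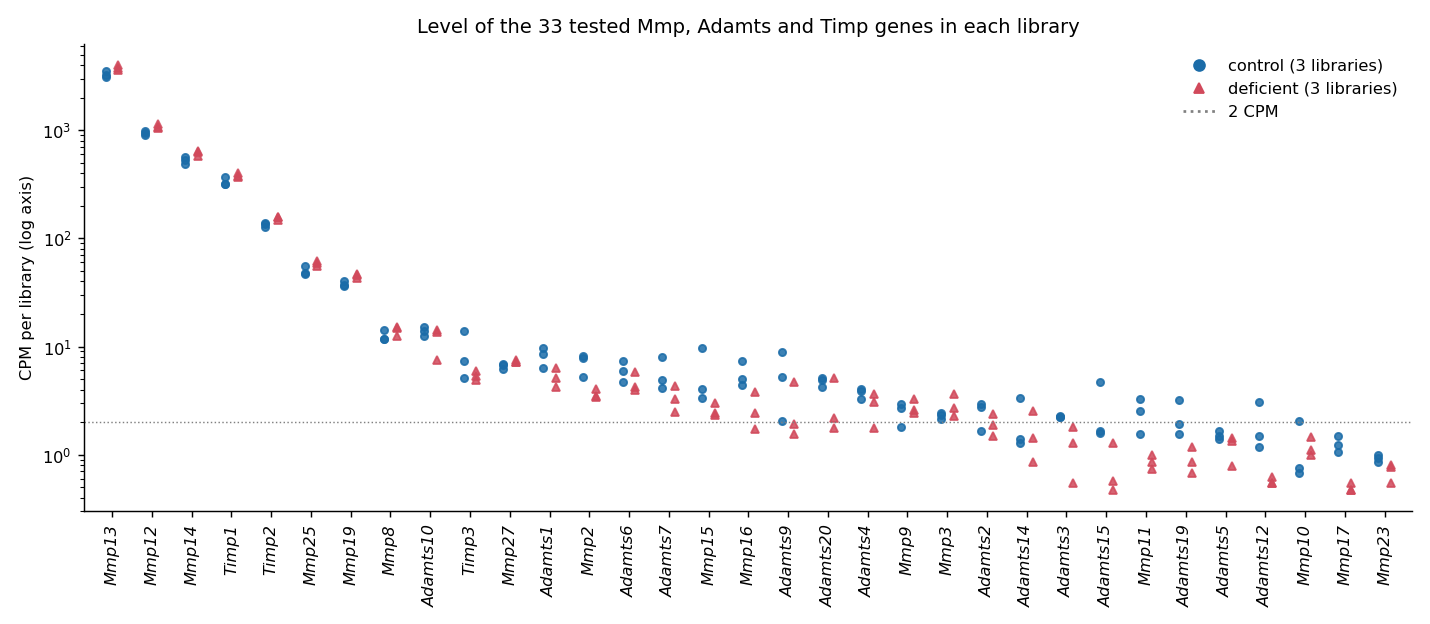
Each point is 1 library, with the 33 tested members ordered by mean level on the x axis and CPM on a log y axis, circles for the 3 control and triangles for the 3 deficient libraries. The deficient libraries of Mmp13, Mmp12 and Mmp14 sit just above the controls, whereas those of Mmp2, Mmp16, Mmp11 and Adamts12 sit below them.

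The study's rule for a call asked for an adjusted p no higher than 0.1, a log2 fold change of 0.58 or more in either direction and an average of 2 CPM or more. By this rule, 2 of 33 tested members were called lower (Mmp2 and Mmp16), against 4.88% of all tested genes. None was called higher, against 0.0573% of all tested genes. These calls rest on edgeR, which called 681 genes lower and 8 higher. The study applied its rule to limma results and reported more genes in each direction. DESeq2 and limma-voom called 3 members lower each, Mmp2 and Mmp16 with Mmp15 or Adamts1, and 0 higher. Over all genes, DESeq2 called 871 lower and 15 higher, and limma-voom 704 lower and 8 higher. By the adjusted p alone, 7 members were lower and 3 higher, against 7.75% and 4.18% of all tested genes (edgeR, Benjamini-Hochberg). Without regard to adjustment, 10 members had p below 0.05 and were lower, and 7 were higher, against 15.2% and 12.1% of all tested genes (edgeR). The 3 deficient libraries lay wholly below the 3 controls for 11 of the 33 members and wholly above them for 7, which occurred in 16.4% and 15.0% of all tested genes. The median log2 fold change was −0.37 over the tested members and −0.02 over all tested genes.

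Among the collagenases, which cut fibrillar collagen, Mmp13 was by far the most abundant member, at 1330 CPM per kb of exon. It read 3249, 3121 and 3544 CPM in controls and 3619, 3797 and 4006 CPM in deficient libraries. The deficient libraries were all above the controls (log2 fold change 0.20, SE 0.08, adjusted p = 0.121 by edgeR). Mmp8, the collagenase stored in neutrophil granules, was much scarcer, at 5.52 CPM per kb. It read 14.1, 11.8 and 11.7 CPM in controls and 12.5, 14.9 and 15.2 CPM in deficient libraries, with overlapping groups (log2 fold change 0.19, SE 0.14, adjusted p = 0.394 by edgeR). Mmp1b, a rodent relative of the interstitial collagenase gene, had no count in any library, where 3 counts would be worth between 0.142 and 0.401 CPM.

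Mmp12, the macrophage elastase, stood at 140 CPM per kb. Its levels were 950, 898 and 995 CPM in controls and 1043, 1064 and 1145 CPM in deficient libraries. All 3 deficient values were above all 3 controls (log2 fold change 0.19, SE 0.07, adjusted p = 0.103 by edgeR). Mmp19, a secreted enzyme that cuts basement membrane proteins, read 36.1, 37.3 and 40.7 CPM in controls and 43.2, 46.1 and 46.6 CPM in deficient libraries (log2 fold change 0.25, SE 0.08, adjusted p = 0.0892 by edgeR). This was past the adjusted p threshold and below the fold threshold. On the opposite strand, exons of Tmem198b cover 22.3% of the exon bases of Mmp19. Mmp27 was present at a mean of 6.96 CPM with a log2 fold change of 0.14 (SE 0.17). The enamel protease Mmp20 had no count in any library, Mmp21 had 1 to 4 counts per library and Mmp28 had 2 to 15.

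Among the membrane-bound Mmps, abundant and scarce genes differed in sign. Mmp14, which activates pro-Mmp2 at the cell surface, stood at 96.1 CPM per kb. It read 536, 486 and 563 CPM in controls and 577, 631 and 645 CPM in deficient libraries. The groups did not overlap (log2 fold change 0.22, SE 0.07, adjusted p = 0.094 by edgeR), and the fold was below the threshold for a call. Mmp25, also named leukolysin for its presence in leukocytes, read 55.1, 47.2 and 48.3 CPM in controls and 59.0, 55.8 and 62.1 CPM in deficient libraries, again without overlap (log2 fold change 0.23, SE 0.08, adjusted p = 0.101 by edgeR). Mmp8, Mmp9, Mmp12 and Mmp25, the members named for or known from leukocytes, all had log2 fold changes between 0.16 and 0.23. Such values were not particular to them. Mmp13, Mmp14, Mmp19, Timp1 and Timp2 had log2 fold changes between 0.18 and 0.25.

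Mmp16, which like Mmp14 can activate pro-Mmp2, was called lower. It read 5.0, 7.36 and 4.43 CPM in controls and 3.76, 1.71 and 2.42 CPM in deficient libraries. Every deficient library was below every control (log2 fold change −1.09, 95% interval −1.79 to −0.39, SE 0.32, adjusted p = 0.0843 by edgeR). Mmp15, of the same transmembrane subgroup, read 4.04, 9.77 and 3.36 CPM in controls and 2.98, 2.44 and 2.33 CPM in deficient libraries. The groups did not overlap, control replicate 2 was far above the others, and the adjusted p just missed the threshold (log2 fold change −1.12, SE 0.39, adjusted p = 0.107 by edgeR). The lipid-anchored Mmp17 had about 1 CPM and a log2 fold change of −1.31 (SE 0.43, adjusted p = 0.0986 by edgeR), too scarce for a call. Mmp23 had a log2 fold change of −0.38 (SE 0.43), and Mmp24, known from neurons, was not tested, with 7, 10 and 15 counts in controls and 2, 8 and 5 in the deeper deficient libraries.

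Mmp2, the gelatinase made by mesenchymal cells, was the other member called lower. Its levels were 8.19, 7.89 and 5.17 CPM in controls and 3.45, 3.48 and 4.04 CPM in deficient libraries. The highest deficient library was below the lowest control (log2 fold change −0.94, 95% interval −1.45 to −0.43, SE 0.23, adjusted p = 0.0689 by edgeR). Mmp9, the gelatinase of leukocytes and osteoclasts, had overlapping groups at a mean of 2.63 CPM and a log2 fold change of 0.16 (SE 0.29).

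Both calls depended on single libraries, as did the calls over all tested genes. Leaving out control replicate 1 gave an adjusted p of 0.245 for Mmp2 and 0.244 for Mmp16 (edgeR, Benjamini-Hochberg), and leaving out control replicate 2 gave 0.210 and 0.268. The values were 0.127 and 0.172 when deficient replicate 2 was left out and 0.176 and 0.258 when deficient replicate 3 was. Without control replicate 3 or deficient replicate 1 both were called, with 5 members called lower in each case. Over all tested genes, 0 were called lower without control replicate 1, 61 without control replicate 2 and 1219 without control replicate 3. With each library left out in turn, the log2 fold change ranged from −1.13 to −0.81 for Mmp2 and from −1.41 to −0.86 for Mmp16. With the libraries scaled to 36 embryonic marker genes, which moved the median of all tested genes from −0.02 to 0.90, the log2 fold change of Mmp2 was 0.05 and that of Mmp16 −0.12, both below this median.

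Among the stromelysins and the matrilysin, which cut a wide range of matrix proteins, only Mmp11 was past the adjusted p threshold. Mmp11, known from stromal cells beside invading epithelia, read 3.30, 2.54 and 1.56 CPM in controls and 0.862, 0.733 and 0.997 CPM in deficient libraries. The groups did not overlap (log2 fold change −1.48, SE 0.39, adjusted p = 0.0765 by edgeR), and its mean of 1.66 CPM kept it from a call. Exons of Chchd10 on the opposite strand cover 5.58% of its exon bases. Mmp3 and Mmp10 had overlapping groups, with log2 fold changes of 0.31 (SE 0.29) and −0.04 (SE 0.47). Mmp7 had no count in the controls and 1 or 2 counts in each deficient library, which is under the floor of 3 counts in every library.

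Several of the Mmp genes lay together. Of the 22 Mmp genes, 9 (Mmp13, Mmp12, Mmp1b, Mmp3, Mmp10, Mmp8, Mmp27, Mmp20 and Mmp7) occupy 427072 bases of chromosome 9 (chr9:7272514-7699585, GRCm38). Of the 6 tested among them, 5 had a positive log2 fold change, with a median of 0.19, and none was called. Of the 10 tested Mmp genes elsewhere in the genome, 4 had a positive and 6 a negative log2 fold change, with a median of −0.66. Within the cluster the levels ranged from no count at Mmp1b and Mmp20 to the level of Mmp13, so adjacent genes were not at like levels.

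**Figure D2:**
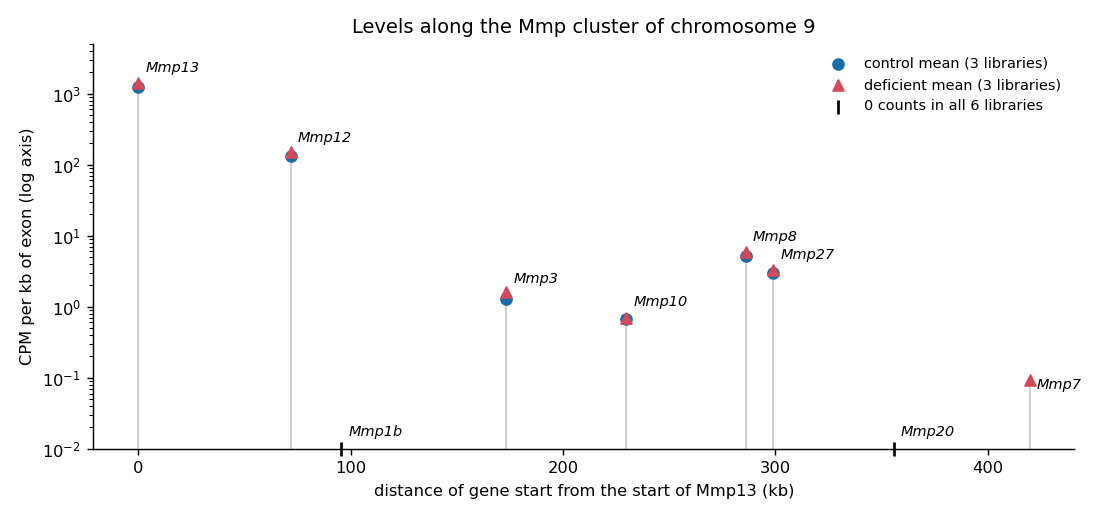
The x axis gives the distance of each Mmp gene of chromosome 9 from the start of Mmp13 in kb and the y axis its mean level in CPM per kb of exon on a log scale, circles for control and triangles for deficient means of 3 libraries. Mmp13 and Mmp12 stand far above their neighbours, Mmp1b and Mmp20 have no counts, and Mmp7 has counts only in the deficient libraries.

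Promoters of the cluster genes share a short motif. Windows from 250 bases before to 50 bases after a gene start were available from RefSeq (GRCm38.p6) for 31 of the 45 members, with no window for Mmp2, Mmp9, Mmp16, Mmp17, Mmp19, Adamts4, Adamts5, Adamts6, Adamts7, Adamts8, Adamts10, Adamts15, Adamts16 and Adamts19. The AP-1 letters TGANTCA, which read the same on both strands, were present in 7 of the 9 cluster genes (Mmp13, Mmp12, Mmp1b, Mmp3, Mmp10, Mmp20 and Mmp7) and in 0 of the 22 other members with a window. Over all genes with a window, 7.819% of 27025 held them. In the cluster genes the motif began between 35 and 95 bases before the start, and it overlapped neither of the other motifs searched. A gene was counted if any of its windows held the letters. Of the 2 windows of Mmp12, only that of the second start held them. The genes with the letters included the highest and the undetected members of the cluster. The following 120 bases before the start are shown for abundant members of each family that have a window and for the 2 stromelysins Mmp3 and Mmp10, which were chosen for holding the motif, with the AP-1 letters in capitals.
Mmp13, collagenase (chr9:7272394-7272513, plus strand): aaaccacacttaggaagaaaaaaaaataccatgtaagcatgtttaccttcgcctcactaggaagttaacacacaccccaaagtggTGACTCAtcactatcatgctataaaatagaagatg
Mmp12, macrophage elastase (chr9:7347254-7347373, plus strand, the second of its 2 annotated starts): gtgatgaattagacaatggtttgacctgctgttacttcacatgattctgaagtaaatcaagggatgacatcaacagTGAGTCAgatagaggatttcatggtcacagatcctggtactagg
Mmp3, stromelysin (chr9:7445702-7445821, plus strand): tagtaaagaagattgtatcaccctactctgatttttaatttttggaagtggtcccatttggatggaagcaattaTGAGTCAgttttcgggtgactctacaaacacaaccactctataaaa
Mmp10, stromelysin (chr9:7502222-7502341, plus strand): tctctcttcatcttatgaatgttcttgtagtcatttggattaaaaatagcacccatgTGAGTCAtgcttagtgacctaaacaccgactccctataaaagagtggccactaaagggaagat
Timp1, inhibitor (chrX:20870046-20870165, plus strand): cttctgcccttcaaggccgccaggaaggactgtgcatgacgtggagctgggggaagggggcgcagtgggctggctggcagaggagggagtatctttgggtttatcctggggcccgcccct
Adamts1, proteoglycan-cleaving protease (chr16:85803114-85803233, minus strand): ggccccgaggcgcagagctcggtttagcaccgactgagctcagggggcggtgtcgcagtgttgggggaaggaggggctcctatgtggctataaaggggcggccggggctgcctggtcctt

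The Tead letters GGAATG were searched on both strands because the study examined Tead factors. In the 250 bases before the start they occurred in 2 of 31 members (Adamts13 and Timp1), against 14.36% of all genes. The study looked for Tead motifs in far longer promoter stretches, so its counts are of another kind. The PU-box letters GAGGAA, bound by a macrophage factor, occurred in 5 of 31 members (Mmp7, Mmp8, Mmp10, Mmp12 and Mmp25), against 25.85% of all genes. Such matches describe the letters of these windows and not the binding of a factor.

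Timp1, a secreted inhibitor of most Mmps, was the most abundant inhibitor, at 404 CPM per kb. It read 319, 317 and 371 CPM in controls and 370, 377 and 399 CPM in deficient libraries. The groups touched at 1 library, control replicate 3 (log2 fold change 0.18, SE 0.07, adjusted p = 0.129 by edgeR). Timp2, which couples pro-Mmp2 to Mmp14, read 136, 128 and 140 CPM in controls and 147, 157 and 157 CPM in deficient libraries. All deficient values were above the controls (log2 fold change 0.19, SE 0.06, adjusted p = 0.0933 by edgeR). This was past the adjusted p threshold with a fold too small for a call. With library totals the adjusted p of Timp2, Mmp14 and Mmp19 was 0.229, 0.230 and 0.140 (edgeR, Benjamini-Hochberg), so that none of the 3 was past it.

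Timp3, which stays bound to the matrix and also inhibits Adamts proteases, was scarce and ran the other way. It read 5.11, 13.8 and 7.30 CPM in controls and 5.87, 4.95 and 5.36 CPM in deficient libraries. Control replicate 2 was high and the lowest control lay within the deficient range (log2 fold change −0.67, SE 0.32, adjusted p = 0.206 by edgeR). Exons of Syn3 on the opposite strand cover 21.3% of the exon bases of Timp3. Timp4 was not tested, with 4, 4 and 2 counts in controls and 2, 9 and 4 counts in deficient libraries.

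Each of the 14 tested Adamts genes had a negative log2 fold change, with a median of −0.68, which became 0.26 with the scaling to embryonic markers, still below the median of 0.90 that all genes then had. None was called, 3 were past the adjusted p threshold (Adamts12, Adamts15 and Adamts19) and 5 lay wholly below the controls, namely these 3 with Adamts1 and Adamts3. Over all tested genes, 4.88% were called lower, 7.75% were past this threshold and lower, and 16.4% lay wholly below the controls. All tested Adamts genes but Adamts10 had a mean under 10 CPM. Of all 6600 tested genes under that level, 4667 had a negative log2 fold change. Of these 6600, 711 were past the threshold and lower, and 1505 lay wholly below the controls. Adamts10 and Adamts1 were the highest of the family per length, at 1.55 and 1.26 CPM per kb of exon.

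Of the proteases of versican and other proteoglycans, Adamts1 read 8.51, 9.77 and 6.32 CPM in controls and 6.27, 5.13 and 4.18 CPM in deficient libraries (log2 fold change −0.66, SE 0.23, adjusted p = 0.103 by edgeR). Its groups were separated only by the small step from 6.27 to 6.32 CPM. Adamts15 read 1.60, 4.68 and 1.64 CPM in controls and 0.470, 1.28 and 0.570 CPM in deficient libraries (log2 fold change −1.70, SE 0.54, adjusted p = 0.0949 by edgeR). Control replicate 2 was again the highest. Adamts9, with a known role in palate closure, ranged from 2.05 to 8.96 CPM in controls and from 1.57 to 4.70 CPM in deficient libraries, so that its log2 fold change of −0.94 had an SE of 0.62. Adamts20, the gene of the belted coat mutant, had −0.70 (SE 0.37), Adamts4 −0.42 (SE 0.30) and Adamts5 −0.32 (SE 0.38). Adamts8 was not tested, with 4 to 9 counts in controls and 2 to 5 in deficient libraries.

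The procollagen N-proteinases, which trim the amino end of fibrillar procollagens, were all near 2 CPM. Adamts3 read 2.23, 2.27 and 2.22 CPM in controls and 1.80, 0.550 and 1.28 CPM in deficient libraries (log2 fold change −0.90, SE 0.42, adjusted p = 0.186 by edgeR). Its controls were tight and its deficient libraries spread widely. Adamts2 and Adamts14 had log2 fold changes of −0.34 (SE 0.34) and −0.25 (SE 0.49), with overlapping groups.

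Adamts7 and Adamts12 both cut cartilage oligomeric matrix protein. Adamts12 read 1.17, 3.08 and 1.48 CPM in controls and 0.548, 0.550 and 0.617 CPM in deficient libraries (log2 fold change −1.68, SE 0.47, adjusted p = 0.0785 by edgeR). The deficient libraries were close together and below all controls, at a mean level too low for a call. Adamts7 read 4.89, 8.03 and 4.10 CPM in controls and 4.31, 3.30 and 2.47 CPM in deficient libraries (log2 fold change −0.75, SE 0.30, adjusted p = 0.142 by edgeR).

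Of the enzymes tied to fibrillin microfibrils, Adamts10 read 15.0, 13.9 and 12.6 CPM in controls and 14.3, 13.6 and 7.45 CPM in deficient libraries (log2 fold change −0.24, SE 0.23, adjusted p = 0.533 by edgeR). Only deficient replicate 3 was low, and without it the log2 fold change was 0.01. Adamts6 had −0.37 (SE 0.24), with overlapping groups, and Adamts17 was not tested, with 6 to 12 counts in controls and 4 to 8 in deficient libraries. Adamts19, known from the heart valves, read 1.91, 3.21 and 1.56 CPM in controls and 1.17, 0.672 and 0.855 CPM in deficient libraries, without overlap (log2 fold change −1.28, SE 0.41, adjusted p = 0.094 by edgeR). Adamts13, the protease of von Willebrand factor, had 1 to 6 counts per library, Adamts16 had 0 to 8 and Adamts18 had 0 to 4.

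Of the 10 members past the adjusted p threshold, none was past it without control replicate 1 or deficient replicate 3. Their lowest adjusted p was 0.215 in the former case and 0.176 in the latter (edgeR, Benjamini-Hochberg). Without control replicate 2 the lowest was 0.210. Without deficient replicate 2, Adamts15 alone was past it, with an adjusted p of 0.098.

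**Figure D3:**
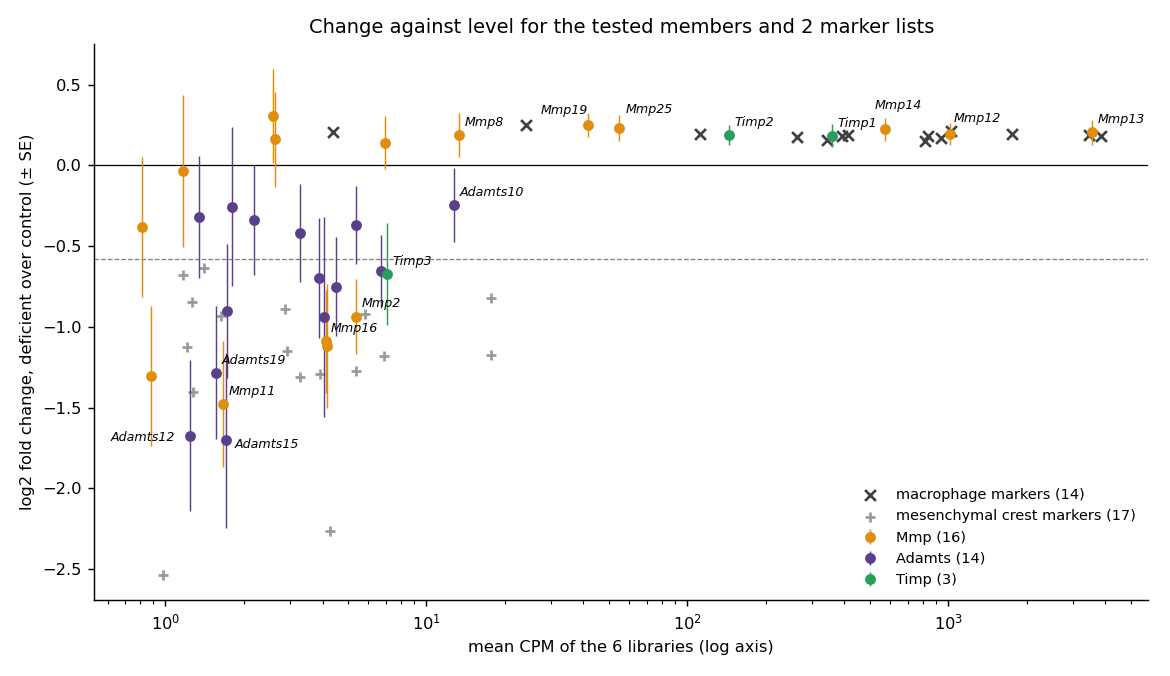
The x axis is the mean CPM of the 6 libraries on a log scale and the y axis the log2 fold change of deficient over control, with bars of 1 SE for the 33 tested members, crosses for 14 macrophage markers and plus signs for 17 tested mesenchymal crest markers. The dashed line marks −0.58. Abundant members but Adamts10 lie near 0.2 beside the macrophage markers, while Mmp2, Mmp16, Mmp11 and most Adamts genes lie in the range of the crest markers. Adamts2, Adamts4, Adamts5, Adamts6, Adamts10 and Adamts14 lie between that range and 0. Other marker lists are not drawn.

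The macrophage and crest marker lists moved in the same directions as the 2 sets of proteases. All 14 macrophage markers had log2 fold changes between 0.15 and 0.25, with a median of 0.18, and 1 of them was past the adjusted p threshold. Over all tested genes, 4.18% were past it and higher, and 4.88% were called lower. All 17 tested mesenchymal crest markers were below 0, with a median of −1.15, and 8 of them were called lower. The sensory neuron (median −1.28, 4 of 11 called lower), autonomic (−0.94, 0 of 4), glial crest (−0.98, 1 of 5) and neural tube (−0.67, 1 of 12) lists also lay below 0. The neutrophil markers summed to between 17.5 and 23.0 CPM in controls and between 24.0 and 27.5 CPM in deficient libraries. Only 3 of the 10 were tested, with a median log2 fold change of 0.51. S100a8 and S100a9 had 0.51 and 0.53, whereas Ngp had −0.27. Medians were 0.06 over 5 endothelial, −0.24 over 8 erythroid and −0.05 over 2 smooth muscle markers. The endothelial sum, most of it from Kdr, also rose without overlap. It lay between 175 and 197 CPM in controls and between 201 and 213 CPM in deficient libraries. The part of these cell types in the changes of the proteases was not tested.

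Summed over all members, tested or not, the Mmp genes held 4919 ± 297 CPM in controls and 5653 ± 282 CPM in deficient libraries (SD, n = 3 each, exact two-sided permutation p = 0.1). The Timp genes held 480 ± 33.2 and 541 ± 19.4 CPM (SD, n = 3 each, exact permutation p = 0.1). The Adamts genes held 65.1 ± 12.3 and 42.8 ± 8.25 CPM (SD, n = 3 each, exact permutation p = 0.1). For each family the groups did not overlap on this scale, and 0.1 is the smallest p that 3 against 3 libraries allow. With library totals in place of TMM the Mmp and Timp groups overlapped, control replicate 3 lying above deficient replicate 1 in both and above deficient replicate 2 in Timp (exact permutation p = 0.2 and 0.3), and the Adamts groups did not. The direction of the Adamts sum turned with the scaling to embryonic markers, where the log2 ratio of means was 0.34, and those of the Mmp and Timp sums did not.

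**Figure D4:**
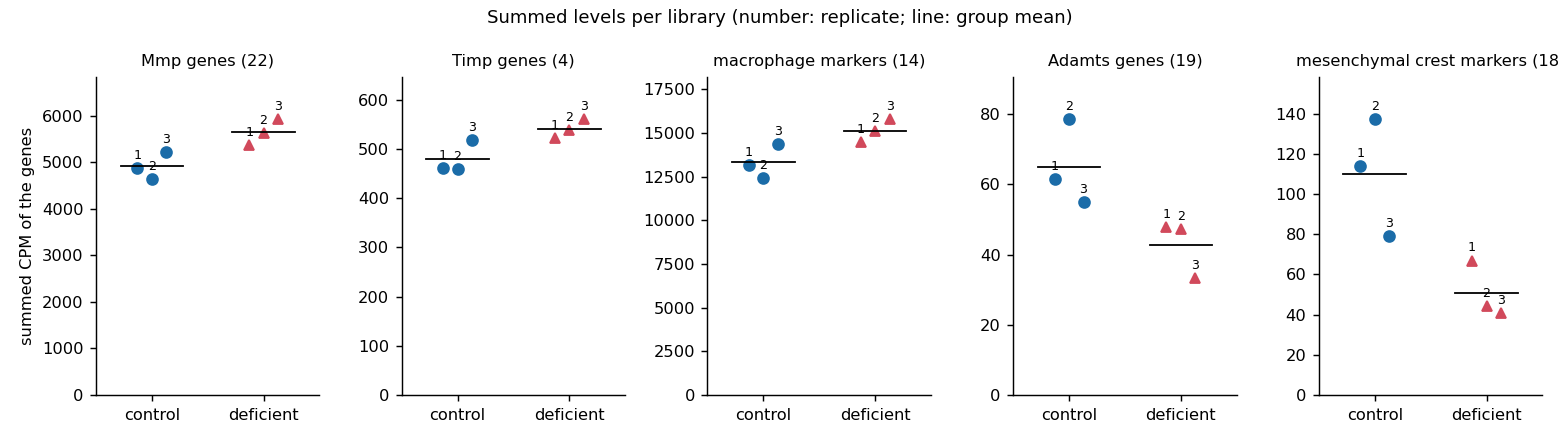
Each panel plots summed CPM per library on an axis that starts at 0, for the Mmp, Timp and Adamts genes and for the macrophage and mesenchymal crest marker lists, with replicate numbers beside the points and a line at each group mean. The Mmp, Timp and macrophage sums are higher in every deficient library, and the Adamts and mesenchymal crest sums are lower.

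Shares of a family's summed CPM, not divided by length, were computed for the most abundant Mmp and Timp genes. Mmp13 made up 67.2% ± 0.526 of the summed Mmp CPM in controls and 67.3% ± 0.0746 in deficient libraries (SD, n = 3 each, exact permutation p = 0.7). Mmp12, Mmp13 and Mmp14 together made up 97.2% and 97.4%. Timp1 made up 69.9% ± 1.47 and 70.5% ± 0.588 of the Timp CPM (SD, n = 3 each, exact permutation p = 0.5). The ratio of summed Mmp to summed Timp level, per kb of exon, was 3.61 ± 0.112 in controls and 3.65 ± 0.0520 in deficient libraries (SD, n = 3 each, exact permutation p = 0.7). This ratio does not depend on how libraries are scaled, and its groups overlapped.

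Ratios to the marker sums were chosen after the values of the families were seen. Each family was set beside a marker list that moved in the same direction. For Adamts this was the mesenchymal crest list, whose summed CPM had a mean of 110 in controls and 50.6 in deficient libraries. The neural tube, sensory neuron, autonomic and glial crest lists also fell and were not used. The neural tube sum had means of 127 and 81.1 CPM. The log2 ratio of the Mmp sum to the macrophage marker sum was −1.43 ± 0.0195 in controls and −1.42 ± 0.00735 in deficient libraries (SD, n = 3 each, exact permutation p = 0.4). For the Timp sum it was −4.79 ± 0.0391 and −4.80 ± 0.0142 (SD, n = 3 each, exact permutation p = 0.8). The log2 ratio of the Adamts sum to the mesenchymal crest marker sum was −0.74 ± 0.189 in controls and −0.23 ± 0.298 in deficient libraries (SD, n = 3 each, exact permutation p = 0.1). This ratio was higher in every deficient library than in any control, at the smallest p the design allows. Its direction depended on the list chosen. The glial crest sum had means of 61.5 CPM in controls and 45.2 CPM in deficient libraries. The Adamts mean was above it in controls, at 65.1 CPM, and below it in deficient libraries, at 42.8 CPM. Adamts ratios to the unused lists were not tested.

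Other genes of the pathway were read from lists of activators, inhibitors, related metalloproteinases, Adamts-like proteins and substrates, with 64 genes in the table and 49 tested. Of these, 6 were called lower and none higher, against 4.88% and 0.0573% of all tested genes. By the adjusted p alone 9 were lower and 3 higher, against 7.75% and 4.18% of all tested genes (edgeR, Benjamini-Hochberg). Of the 17 tested substrates, 16 had a negative log2 fold change, with a median of −0.76. The fibrillar collagen chains Col1a1, Col1a2 and Col3a1 had log2 fold changes of −0.71, −0.75 and −0.99, the microfibril protein Fbn1 −0.76 and the laminin chain Lama1 −1.74, and all 5 were called lower. Col1a2, for example, read 83.9, 112 and 74.4 CPM in controls and 58.2, 52.3 and 49.2 CPM in deficient libraries, without overlap.

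The related metalloproteinases (9 tested) had a median of 0.13, and Bmp1, the procollagen C-proteinase, was the one called lower. It read 12.2, 13.9 and 11.2 CPM in controls and 7.36, 6.72 and 5.60 CPM in deficient libraries (log2 fold change −0.93, SE 0.17, adjusted p = 0.0455 by edgeR). The sheddase Adam9 was past the adjusted p threshold in the other direction, with a log2 fold change of 0.26. The activators and plasminogen system (8 tested) had a median of 0.13, with Furin and the urokinase receptor Plaur past the adjusted p threshold at log2 fold changes of 0.23 each. The convertase Pcsk5 was past it in the other direction, at a log2 fold change of −1.52 and a mean of 1.77 CPM, and none of this list was called. The inhibitors and clearance receptors (11 tested) had a median of −0.40 and the Adamts-like proteins (4 tested) of −0.72, with none called in either list. Without control replicate 1 or deficient replicate 3 none of the pathway genes was called, without control replicate 2 or deficient replicate 2 a single gene was, and without control replicate 3 the number was 12.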

How the data were processed

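Strand-specific poly(A) libraries of GFP+ NCCs from 3 control and 3 embryos deficient in BAF155 and BAF170 were sequenced as paired-end reads. The authors trimmed adapters (cutadapt 1.18 per the submitters' processing notes), aligned reads to GRCm38 with STAR and counted them per gene with featureCounts, and the deposited values are raw counts. The annotation release and the strand setting of the counting are not given in the sources used here, so reads of genes that overlap on opposite strands cannot be told apart. Of 46983 rows, 46488 were named through GENCODE M21 by identifier without version, and 1 polymorphic pseudogene that matched the name rule was not counted as protein coding.

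Counts of all 6 libraries were fitted in R 4.3.3 with edgeR 4.0.16: filterByExpr (minimum count 10, minimum total 15), TMM, robust quasi-likelihood F test with condition as the only term, and Benjamini-Hochberg adjustment over 13961 tested genes. CPM used TMM-normalized library sizes. Log2 fold changes came from the fitted model, and a prior count of 2 entered only log2 CPM values. SEs came from the F statistic. The common biological coefficient of variation was 12.8%. Each library is a separate embryo per the study's methods. The chi-square per degree of freedom of pairs within a group ran from 9.03 to 51.6, so no library was a duplicate of another in its group. Sums and ratios per library were compared by exact permutation tests. Alternatives were DESeq2 1.42.0, limma-voom (limma 3.58.1), library totals, scaling to 36 of 60 listed embryonic markers, other filters and thresholds, a replicate block and each library left out in turn. The script was tested on simulated counts. Figures were drawn with Python 3.11.15 and matplotlib 3.10.9.

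Members and lists were chosen with earlier results of these data known. Members that were called, that had a mean of at least 10 CPM, and every Timp were given in every library. Other tested members were named with their log2 fold change, and further values were printed where groups did not overlap or a library stood out, a choice made after the values were seen. Untested members were given by counts. Promoter windows came from RefSeq (GRCm38.p6), and exons shared with other genes from GENCODE M21. Intervals and floors cover counting error or the spread between these libraries only.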

Additional observations from a re-analysis of the deposited data

How the results depend on the processing

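Each library left out in turn moved the count of members called lower between 0 and 5, of all genes called lower between 0 and 1219, of all genes called higher between 0 and 45 and of pathway genes called lower between 0 and 12, and no member was called higher in any of these fits. The median log2 fold change then ranged from −0.020 to 0.18 for Mmp (negative without control replicate 1), from −0.75 to −0.51 for Adamts and from 0.15 to 0.22 for Timp genes. The log2 Mmp to Timp ratio difference ranged from −0.00572 to 0.0387, and that of the Timp sum to the macrophage marker sum from −0.0305 to 0.00864. Of single members, Mmp10 ranged from −0.27 to 0.73, Adamts14 from −0.79 to 0.28, Mmp9 from −0.020 to 0.33 and Adamts10 from −0.40 to 0.010. Without turning in sign, others moved by over 1.5 times: Mmp15 from −1.41 to −0.52, Timp3 from −0.94 to −0.21, Adamts15 from −2.25 to −1.05, Adamts9 from −1.58 to −0.38 and Adamts7 from −0.96 to −0.43, each nearest to 0 without control replicate 2. Nearest to 0 without deficient replicate 3 were Adamts20 (−1.27 to −0.41), Adamts4 (−0.66 to −0.15), Adamts2 (−0.58 to −0.17) and Mmp8 (0.13 to 0.29). Without deficient replicate 1 these were Adamts5 (−0.48 to −0.12) and Mmp3 (0.12 to 0.45), without deficient replicate 2 Adamts3 (−1.25 to −0.56), and without control replicate 3 Adamts6 (−0.56 to −0.19).

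Scaling to embryonic markers moved the median of all tested genes to 0.90 and gave 0 members called lower and 12 higher, 73 genes lower and 9351 higher, and 2 pathway genes lower and 18 higher. Medians were then 1.07 for Mmp, 0.26 for Adamts and 1.09 for Timp genes, and the log2 ratio of Adamts sums was 0.34. The log2 fold changes that turned positive were those of Adamts1 (0.30), Adamts2 (0.62), Adamts3 (0.022), Adamts4 (0.47), Adamts5 (0.62), Adamts6 (0.50), Adamts7 (0.22), Adamts9 (0.12), Adamts10 (0.65), Adamts14 (0.80), Adamts20 (0.17), Mmp2 (0.047), Mmp10 (0.80), Mmp23 (0.55), Timp3 (0.33), Smarcc1 (0.25) and Smarcc2 (0.81). By construction, a change shared by the embryonic markers is removed.

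Mmp10, near 0 in the main test, was 0.012 by DESeq2 and 0.051 by limma-voom, 0.0091 with no filter on low counts and 0.025 with the replicate block. DESeq2 called 12 pathway genes lower and 15 genes higher, and 3 members lower. With library totals the Timp median was 0.24, the exact permutation p of the Mmp and Timp sums was 0.2 and 0.3, and Timp2, Mmp14, Mmp19 and Mmp17 were no longer past the adjusted p threshold. With a count of at least 10 in every library Timp2, Mmp14 and Mmp19 were not past it either (adjusted p = 0.107, 0.109 and 0.101 by edgeR), and Mmp17, Adamts12 and Adamts15 were not tested. By DESeq2 Mmp19, Adamts19 and Mmp17 were not past it (adjusted p = 0.114, 0.113 and 0.220). With no filter 6 members and 982 genes were called lower and 33 genes higher, and the Timp median was 0.020 with Timp4 included. With a count of at least 10 in every library 5 genes were called higher. An adjusted p of at most 0.05 left 0 members, 94 genes lower, 0 genes higher and 1 pathway gene, and the adjusted p of 0.1 alone gave 7 members lower and 3 higher, 1082 and 583 genes, and 3 pathway genes higher. With the replicate number as a block 6 members, 1143 genes and 10 pathway genes were called lower and 21 genes higher, but same-numbered libraries share only a number in the labels, with correlations of their deviations of 0.03, −0.03 and 0.29. The cause of these shifts was not tested. Members near 1 CPM rest on few counts (Mmp17 on 10, 11 and 15 in controls), which limits what can be called.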
